A study of Mus musculus with 2 samples.

Results

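The genes described here encode the machinery that carries RNA polymerase II through a gene after it has started. They were followed in libraries labelled as lymphatic endothelial cells (LECs) of embryonic mouse skin. They were chosen by symbol: 38 genes for P-TEFb and its inhibitors, the ELL, BET, PAF and FACT factors, further elongation factors, the kinases of the polymerase tail and the subunits of RNA polymerase II, out of 24319 rows in the deposited lists. All 38 were listed in both libraries. By their labels the libraries came from skin LECs of C57BL/6 embryos at E15.5 (embryonic day), 1 Dot1l knockout and 1 wild type. Each library was made from total RNA pooled over 2 to 3 biological replicates. The labels' protocols describe the knockout as endothelial and do not name the Cre driver, and they also carry a culture protocol for primary dermal LECs, so it is not known here whether the sequenced cells had been cultured.

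RNA polymerase II often stops shortly after the start of a gene and is released when the kinase P-TEFb phosphorylates the polymerase and its pausing factors. P-TEFb is held inactive by HEXIM proteins on the 7SK RNA, and it is brought to genes by BET proteins and by the super elongation complex, which contains ELL and AFF proteins. DOT1L, which methylates lysine 79 of histone H3 in the body of transcribed genes, shares AF9 and ENL partner proteins with that complex, and the PAF complex is needed for the histone H2B ubiquitination that stimulates DOT1L.

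With 1 library per genotype there is no replicate check, so no test, p-value or SD can be given, and every difference below compares these libraries and not the genotypes. Levels are deposited FPKM, that is fragments per 1000000 mapped and per kilobase of transcript. Differences are log2(FPKM + 1) in the library labelled knockout minus wild type, which understates the change of low genes, and a gene was called higher or lower when that difference reached 1, a 2-fold change. Ratios given as a fold are plain ratios of FPKM. Dot1l itself was 10.4 FPKM in the library labelled knockout and 5.86 FPKM in wild type, which is not lower, and since the deleted part is not given here the value does not check the label. The libraries differed in their cell markers. The 6 endothelial markers (Pecam1, Cdh5, Tek, Kdr, Cd34 and Tie1) summed to 159 FPKM in the library labelled knockout and 950 in wild type, and all 6 were at least 2-fold lower. Of 6 lymphatic markers 5 were at least 2-fold lower, the exception being Lyve1. The 8 macrophage markers summed to 2599 FPKM in the library labelled knockout and 41.0 in wild type, where C1qc was listed at 0, and the 6 mast cell markers to 12793 FPKM in the library labelled knockout and 96.6 in wild type. All 14 of these were at least 2-fold higher. The 6 fibroblast markers summed to 863 FPKM in the library labelled knockout and 3309 in wild type, and 5 were at least 2-fold lower. The 5 pericyte markers summed to 24.1 FPKM in the library labelled knockout and 141 in wild type, and all 5 were at least 2-fold lower. The 5 keratinocyte markers summed to 70.1 FPKM in the library labelled knockout and 150 in wild type, with 3 at least 2-fold lower. Of 3 erythroid markers that reached 1 FPKM, 1 was at least 2-fold lower. The part of these differences in the values of the elongation genes was not tested, and fewer cells of a type cannot be told apart from less RNA per cell.

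The elongation genes were mostly listed at similar levels in both libraries. Their FPKM ran between 0.581 and 914 in the library labelled knockout (median 27.6) and between 0.198 and 1114 in wild type (median 27.1), with Ell3 the lowest and Npm1 the highest in each. Of the 38 genes, 37 reached 1 FPKM in at least 1 library and Ell3 did not. Among the 37, 4 were higher in the library labelled knockout by 2-fold or more (Polr2a, Ell2, Hexim1 and Ccnk), which is 10.8%, beside 16.8% (2231) of all 13296 genes that reached 1 FPKM. Another 3 were at least 2-fold lower (Tcea2, Brd3 and Rtf1), which is 8.1%, beside 15.49% (2060) of the 13296. Together 7 of 37 passed the limit in either direction, against 32.3% of all genes, and the other 30 (81.1%) lay within 2-fold, against 67.7%. The median log2 difference was -0.17 over the 37 genes and 0.00 over all genes, and 23 of the 37 lay within 0.5 of zero on the log2 scale, against 42.8% of all genes. All these counts are on the log2(FPKM + 1) scale, where Cdk9, 2.08-fold higher by plain ratio, is not called.

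**Figure D1:**
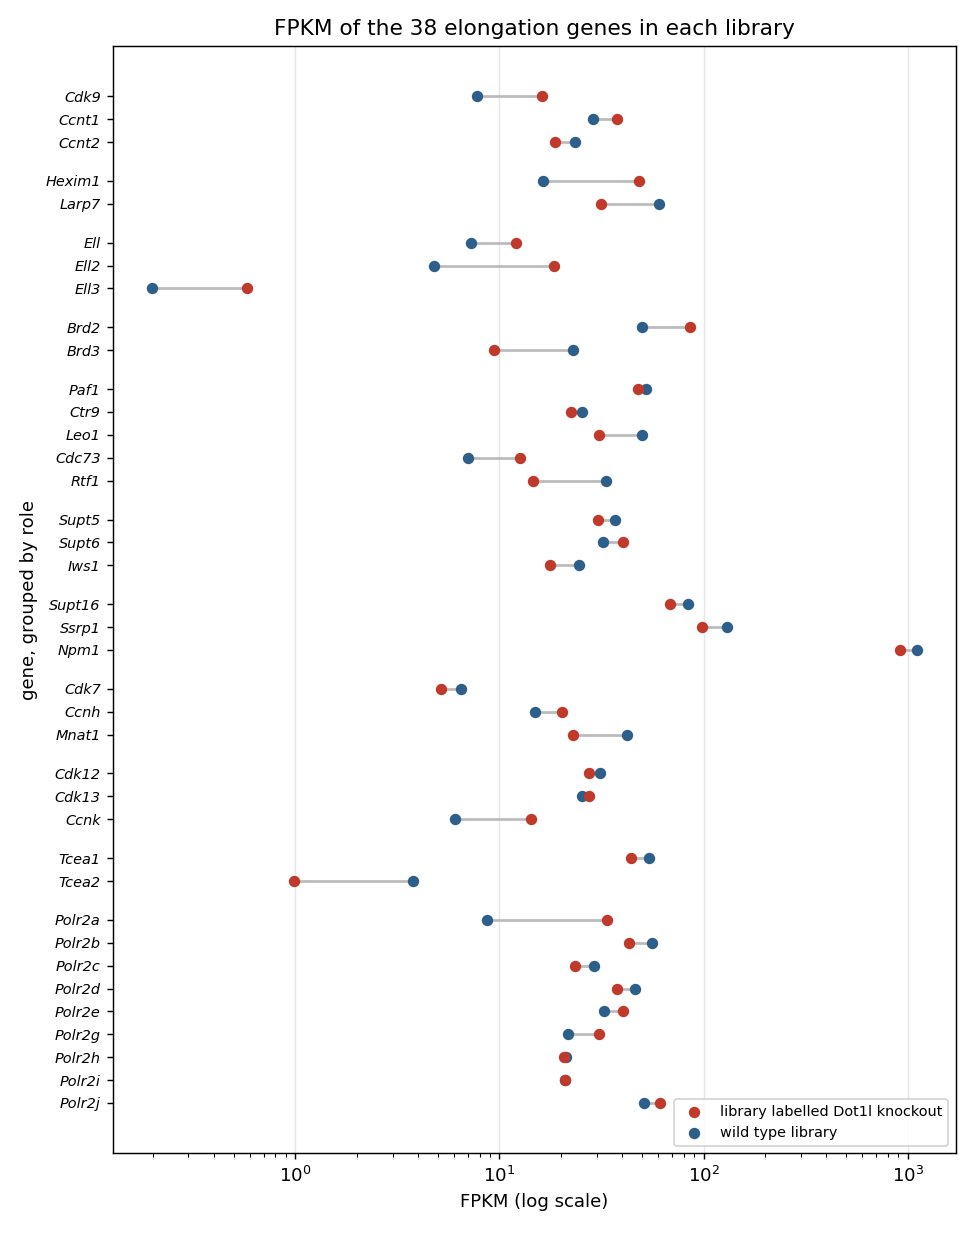
FPKM (log axis) of each of the 38 genes, grouped by role, in the library labelled Dot1l knockout (red) and the wild type library (blue), 1 library each. The library labelled knockout lies well to the right at Polr2a, Ell2, Hexim1 and Ccnk, and at Ell3, which is under 1 FPKM in both libraries, and well to the left at Tcea2, Brd3 and Rtf1.

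The deposited values summed to 530294 FPKM in the library labelled knockout and 415537 in wild type, so the direction of small differences depends on the scaling. After both libraries were brought to a common sum of 1000000 FPKM, the median of all genes moved to -0.33 and that of the elongation genes to -0.52, which is -0.19 relative to all genes, against -0.17 as deposited. Under that rescaling 3 elongation genes were higher and 6 lower, beside 1900 higher and 3330 lower of all genes, against 2231 higher and 2060 lower as deposited. Polr2a, Ell2 and Hexim1 remained the higher genes, while Larp7, Leo1 and Mnat1 joined the lower ones. Supt6, Cdk13, Polr2e and Polr2j, all within 2-fold, changed sign.

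P-TEFb consists of the kinase Cdk9 with cyclin T1 or T2. Cdk9 was 16.2 FPKM in the library labelled knockout and 7.80 FPKM in wild type, a 2.08-fold higher value whose log2 difference of 0.97 lay just inside the 2-fold limit. Ccnt1, the main cyclin of P-TEFb, was 37.5 FPKM in the library labelled knockout and 28.7 in wild type, and Ccnt2, its alternative cyclin, 18.7 FPKM in the library labelled knockout and 23.3 in wild type. The kinase and its first cyclin were thus higher and the second cyclin lower, all within the 2-fold limit on the log2(FPKM + 1) scale. The ratio of Ccnt1 to Ccnt2 was 2.00 in the library labelled knockout and 1.23 in wild type.

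The inhibitory arm of P-TEFb was split. Hexim1, which binds P-TEFb on 7SK RNA and blocks its kinase, was 48.4 FPKM in the library labelled knockout and 16.4 in wild type, 2.94-fold higher (log2 difference 1.502). Larp7, which binds and stabilises 7SK RNA, was 31.3 FPKM in the library labelled knockout and 60.7 in wild type, a log2 difference of -0.93. It passed the lower 2-fold limit in every rescaling (-1.29 to -1.02). Within the library labelled knockout Hexim1 was 1.55 times Larp7, and within wild type 0.271 times, so their order was inverted. Of the other genes of this arm, Mepce, which caps 7SK RNA, was 11.4 FPKM in the library labelled knockout and 6.11 in wild type, and Hexim2, the paralog of Hexim1, 1.96 FPKM in the library labelled knockout and 0.857 in wild type. Both lay within 2-fold on the log2(FPKM + 1) scale.

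ELL proteins raise the rate of elongation and are part of the super elongation complex. Ell2, which in plasma cells drives the processing of immunoglobulin mRNA, was 18.5 FPKM in the library labelled knockout and 4.80 in wild type, 3.86-fold higher (log2 difference 1.75). Ell, the founding member, was 12.01 FPKM in the library labelled knockout and 7.26 in wild type, a log2 difference of 0.66. Ell3 was 0.581 FPKM in the library labelled knockout and 0.198 in wild type, below the 1 FPKM minimum in both libraries. By the depth estimate used here, the values of Ell3 rest on about 10.1 fragments in the library labelled knockout and 3.9 in wild type, so its level is barely measured. Ell2 exceeded Ell in the library labelled knockout, with a ratio of 1.54, and lay under it in wild type, with a ratio of 0.662. The AFF scaffolds of the same complex were also higher: Aff1 was 22.6 FPKM in the library labelled knockout and 4.80 in wild type, and Aff4 was 77.2 FPKM in the library labelled knockout and 33.1 in wild type. After both libraries were brought to a common sum, Aff4 lay inside the 2-fold limit (0.863) and Aff1 did not (1.798). The reader subunits of the complex, Mllt1 (5.58 FPKM in the library labelled knockout, 8.45 in wild type) and Mllt3 (5.21 FPKM in the library labelled knockout, 7.58 in wild type), and the related scaffold Aff3 (1.31 FPKM in the library labelled knockout, 2.19 in wild type) were within 2-fold and lower in the library labelled knockout.

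BET proteins bind acetylated histones and help P-TEFb reach chromatin. Brd2 was 85.5 FPKM in the library labelled knockout and 50.1 in wild type, a log2 difference of 0.76. Brd3 was 9.41 FPKM in the library labelled knockout and 22.9 in wild type, 2.43-fold lower (log2 difference -1.20). The balance of the paralogs differed: Brd2 was 9.09 times Brd3 in the library labelled knockout and 2.19 times in wild type.

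**Figure D2:**
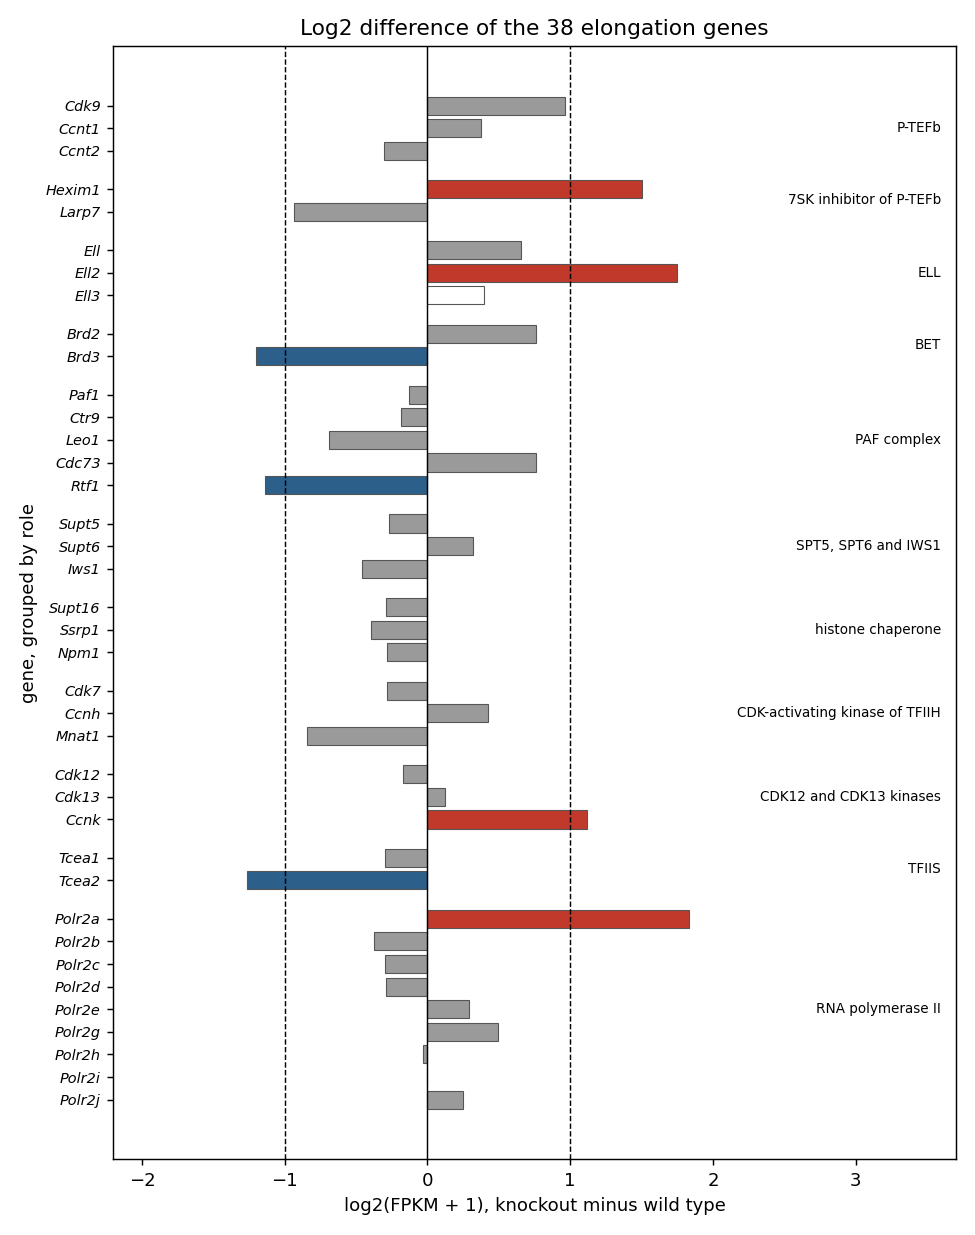
Log2 difference, log2(FPKM + 1) in the library labelled Dot1l knockout minus wild type, for each of the 38 genes by role, with dashed lines at the 2-fold limits; red bars are at least 2-fold higher, blue bars at least 2-fold lower, grey bars within 2-fold and the open bar below the 1 FPKM minimum. Polr2a (1.84), Ell2 (1.75), Hexim1 (1.502) and Ccnk (1.12) pass the upper limit, and Tcea2 (-1.26), Brd3 (-1.20) and Rtf1 (-1.14) the lower one.

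The PAF complex travels with elongating polymerase and directs co-transcriptional histone modification. Its scaffolds Paf1 (47.7 FPKM in the library labelled knockout and 52.1 in wild type) and Ctr9 (22.4 FPKM in the library labelled knockout, 25.5 in wild type) had nearly the same values in both libraries. Leo1 was 30.6 FPKM in the library labelled knockout and 50.1 in wild type, and Cdc73, which encodes the tumour suppressor parafibromin, was 12.6 FPKM in the library labelled knockout and 7.02 in wild type. Rtf1, whose histone modification domain promotes H2B ubiquitination, was 14.6 FPKM in the library labelled knockout and 33.4 in wild type, 2.29-fold lower (log2 difference -1.14). Of the 5 genes Cdc73 had a higher value in the library labelled knockout and the other 4 lower ones. The ratio of Cdc73 to Rtf1 was 0.859 in the library labelled knockout and 0.210 in wild type. Wdr61, a further subunit, was 33.7 FPKM in the library labelled knockout and 25.6 in wild type. Rnf20 and Rnf40, the paired ligase that ubiquitinates H2B, were 41.9 and 25.6 FPKM in the library labelled knockout, against 57.5 and 22.6 FPKM in wild type.

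The factors that ride on the polymerase differed little. Supt5, the large subunit of the pausing and elongation factor DSIF, was 30.3 FPKM in the library labelled knockout and 36.8 in wild type. Supt6, a histone chaperone of elongation, was 40.2 FPKM in the library labelled knockout and 32.1 in wild type, and Iws1, its binding partner, 17.7 FPKM in the library labelled knockout and 24.7 in wild type. All 3 lay within 0.5 on the log2 scale, and Supt5 stood at 0.755 times Supt6 in the library labelled knockout and 1.15 times in wild type, so their order was inverted. Supt4a, the small subunit of DSIF, was 23.5 FPKM in the library labelled knockout and 14.2 in wild type. The 4 genes of NELF, which holds the paused polymerase, lay within 2-fold, with log2 differences between -0.64 (Nelfcd) and 0.40 (Nelfb).

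The FACT genes and Npm1 had slightly lower values in the library labelled knockout. Supt16 and Ssrp1 make up FACT, which opens nucleosomes ahead of polymerase. Supt16 was 68.7 FPKM in the library labelled knockout and 84.0 in wild type, and Ssrp1 98.3 FPKM in the library labelled knockout and 130 in wild type. The balance of the FACT subunits was close to equal between libraries, with Supt16 at 0.699 times Ssrp1 in the library labelled knockout and 0.649 times in wild type. Npm1, an abundant nucleolar chaperone, was 914 FPKM in the library labelled knockout and 1114 in wild type. TFIIS restarts stalled polymerase by stimulating cleavage of the nascent RNA. Its general form Tcea1 was 44.0 FPKM in the library labelled knockout and 54.2 in wild type, and 1 annotated pseudogene named for it may share its reads. Tcea2, a form restricted to fewer tissues, was 0.990 FPKM in the library labelled knockout and 3.78 in wild type, 3.82-fold lower (log2 difference -1.26). That value rests on an estimated 8.9 fragments in the library labelled knockout and 37.9 in wild type. Another form, Tcea3, was listed at 0.710 FPKM in the library labelled knockout and 2.44 in wild type. That rests on an estimated 6.8 fragments in the library labelled knockout and 26.1 in wild type. Its log2 difference of -1.007 became -0.38 with a pseudocount of 5. Tcea2 and Tcea3 were both under 1 FPKM in the library labelled knockout and were kept through their wild type values.

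The kinases of the polymerase tail act at different stages, TFIIH at the start of the gene and CDK12 and CDK13 during elongation. The TFIIH kinase Cdk7 was 5.19 FPKM in the library labelled knockout and 6.52 in wild type. Its cyclin Ccnh was 20.4 FPKM in the library labelled knockout and 14.9 in wild type, and its assembly factor Mnat1 was 23.0 FPKM in the library labelled knockout and 42.0 in wild type, a log2 difference of -0.84. Cdk12 was 27.6 FPKM in the library labelled knockout and 31.1 in wild type, and Cdk13 27.6 FPKM in the library labelled knockout and 25.3 in wild type, so both elongation kinases were at near-equal levels in the libraries. Their shared cyclin Ccnk was 14.3 FPKM in the library labelled knockout and 6.04 in wild type, 2.36-fold higher (log2 difference 1.12). It lay inside the 2-fold limit with a pseudocount of 5 (0.80) and in 3 of 4 rescalings (0.84 to 0.996). Relative to Cdk12, Ccnk stood at 0.517 in the library labelled knockout and 0.194 in wild type.

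Among the polymerase subunits 1 gene stood out. Polr2a encodes the largest subunit, which carries the active site with Polr2b and the heptad-repeat tail that the kinases above phosphorylate. It was 33.5 FPKM in the library labelled knockout and 8.68 in wild type, 3.86-fold higher, with a log2 difference of 1.84. The other 8 listed subunits lay within 0.5 on the log2 scale. Polr2b was 43.0 FPKM in the library labelled knockout and 56.0 in wild type, Polr2c 23.3 in the library labelled knockout and 28.9 in wild type, and Polr2d, with 2 annotated pseudogenes named for it that may share its reads, 37.5 in the library labelled knockout and 46.1 in wild type. These were the lower ones, with Polr2h (20.8 FPKM in the library labelled knockout, 21.2 in wild type) and Polr2i (21.07 FPKM in the library labelled knockout, 21.08 in wild type) at almost the same value in both. Polr2e (40.3 FPKM in the library labelled knockout, 32.7 in wild type), which RNA polymerases I and III share, Polr2g (30.9 FPKM in the library labelled knockout, 21.6 in wild type) of the stalk, and Polr2j (60.9 FPKM in the library labelled knockout, 51.2 in wild type) of the assembly core had higher values in the library labelled knockout. The 3 subunits that complete the enzyme, Polr2f, Polr2k and Polr2l, were 30.1, 61.1 and 6.91 FPKM in the library labelled knockout, against 21.2, 32.0 and 8.14 FPKM in wild type, with log2 differences between -0.21 and 0.91.

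The level of Polr2a relative to its partners does not depend on how a library is scaled. Polr2a stood at 1.09 times the median of the other 11 subunits in the library labelled knockout and at 0.300 times that median in wild type. Against Polr2b alone it was 0.780 times in the library labelled knockout and 0.155 times in wild type. Among all 24319 rows ranked by FPKM within each library, Polr2a lay at percentile 89.5 in the library labelled knockout and 71.8 in wild type. Ell2 lay at percentile 82.0 in the library labelled knockout and 63.7 in wild type, and Hexim1 at 93.0 in the library labelled knockout and 81.6 in wild type, whereas Brd3 was at percentile 71.9 in the library labelled knockout and 86.4 in wild type. The ranks of these genes therefore differed in the same direction as their FPKM. By the depth estimate Polr2a rests on about 1996 fragments in the library labelled knockout and 579 in wild type, and Ell2 on 705 in the library labelled knockout and 205 in wild type.

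**Figure D3:**
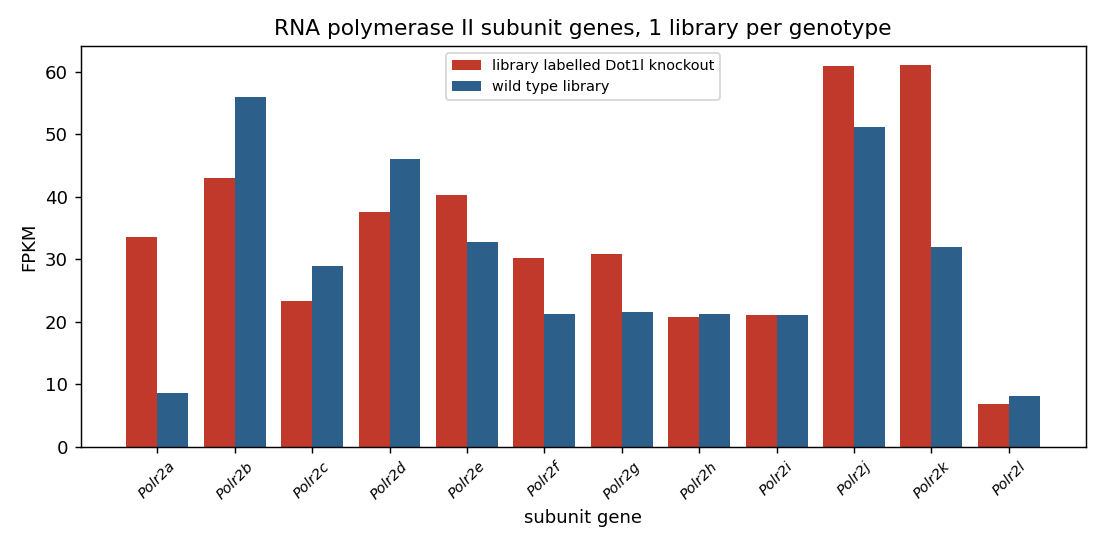
FPKM of the 12 RNA polymerase II subunit genes in the library labelled Dot1l knockout (red, left bar) and the wild type library (blue, right bar), 1 library each. Polr2a is the subunit with the largest ratio between libraries (33.5 FPKM in the library labelled knockout and 8.68 in wild type), and Polr2k (61.1 in the library labelled knockout and 32.0 in wild type) the next.

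**Figure D4:**
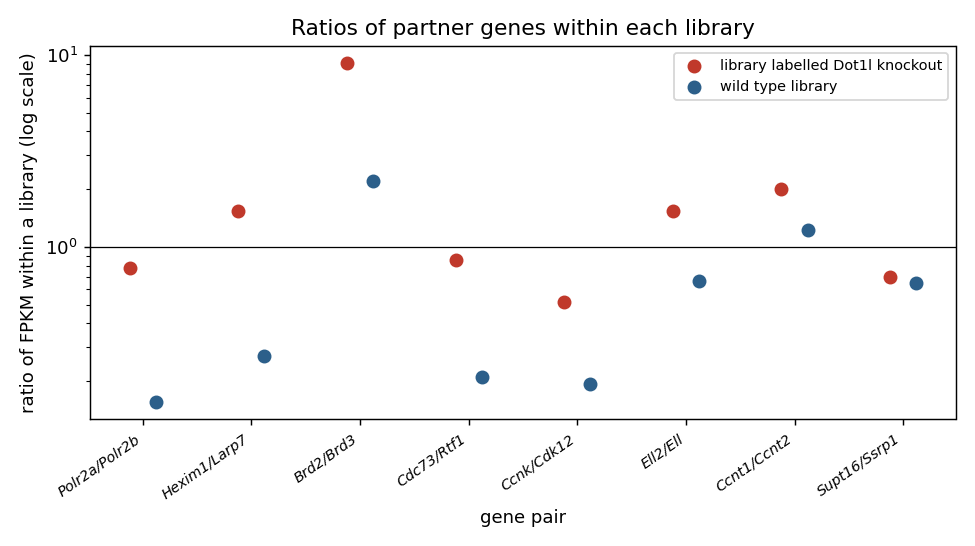
Ratio of FPKM between 2 partner genes within the same library (log axis) for the library labelled Dot1l knockout (red, left point) and the wild type library (blue, right point), with a line at 1. Of the 8 pairs plotted, Hexim1/Larp7 and Ell2/Ell lie on opposite sides of 1 in the libraries, while Supt16/Ssrp1 is 0.699 in the library labelled knockout and 0.649 in wild type.

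**Figure D5:**
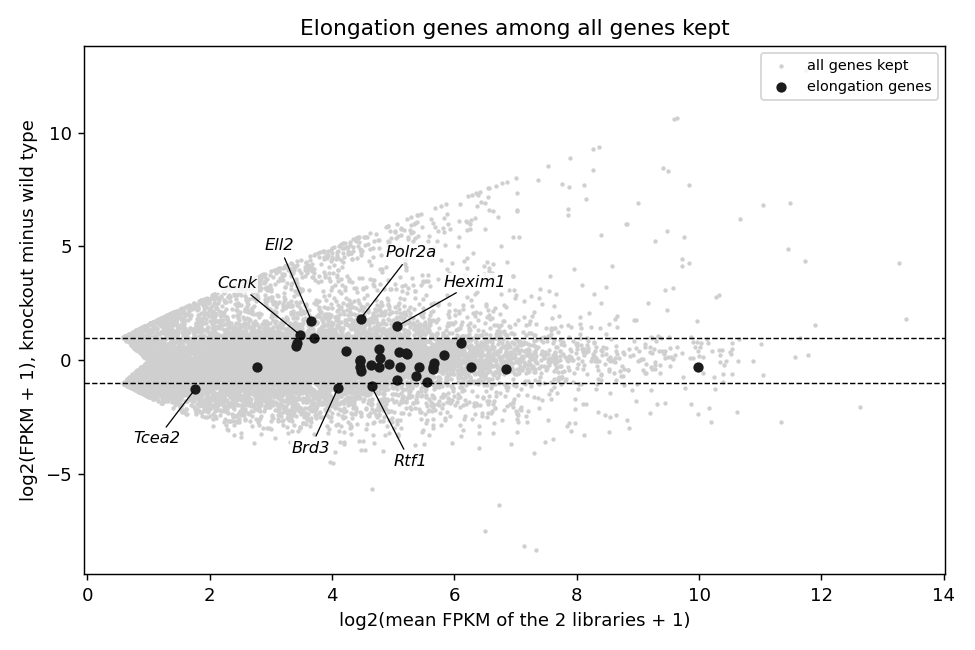
Log2 difference, knockout minus wild type on log2(FPKM + 1), against log2 of the mean FPKM of the libraries plus 1 for all 13296 genes kept (grey) and the 37 elongation genes kept (black), with dashed lines at the 2-fold limits. The elongation genes lie near the middle of the cloud, the 7 named genes lie outside the limits, and many other genes differ more.

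The rest of the pathway gave a similar picture. Of 42 further genes of elongation (the super elongation and DOT1L complexes, NELF, Elongin, tail phosphatases and others), 2 were higher in the library labelled knockout by 2-fold or more, 3 were lower by as much and 37 lay within 2-fold (4.8%, 7.1% and 88.1%), beside 16.8%, 15.49% and 67.7% of all 13296 genes. Their median log2 difference was -0.03. The 2 higher genes were Aff1 and Aff4, given above, with log2 differences of 2.03 and 1.20. The 3 lower ones were Supt7l, Tceb2 and Tcea3. Supt7l, a subunit of the SAGA-type coactivator complex, was 6.26 FPKM in the library labelled knockout and 16.0 in wild type, and Tceb2, which encodes Elongin B, was 62.7 FPKM in the library labelled knockout and 132 in wild type. The other Elongin subunits, Tceb1 (53.5 FPKM in the library labelled knockout, 37.8 in wild type) and Tceb3 (37.6 FPKM in the library labelled knockout, 36.1 in wild type), were within 2-fold and not lower. The most abundant of the remaining genes were the histone chaperone Nap1l1 (230 FPKM in the library labelled knockout and 232 in wild type), Polr2m (67.0 FPKM in the library labelled knockout, 120 in wild type), which encodes a polymerase-associated protein, and Setd2 (51.7 FPKM in the library labelled knockout, 57.0 in wild type), the methyltransferase of histone H3 lysine 36. Among the partners of DOT1L itself, Mllt10 was 17.4 FPKM in the library labelled knockout and 18.3 in wild type and Mllt6 6.72 FPKM in the library labelled knockout and 7.31 in wild type.

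The starts of the genes that differed are shown because they differed by at least 2-fold, with Polr2b beside them as the partner subunit of Polr2a that did not. RefSeq (GRCm38.p6) held a promoter window for 30 of the 38 genes, and Ccnh, Ctr9, Iws1, Npm1, Polr2d, Polr2g, Tcea1 and Tcea2 had none. Where a gene had more than 1 window, as 3 of the 30 did, only the first listed was used. The same held for all other genes compared. Each sequence below is the 150 bases before the annotated start, 5′ to 3′ on the strand of the gene, with matches to any of 7 motifs in capitals. The motifs, searched on both strands, were the TATA box TATAAA, the CCAAT box (its own letters), the GC box GGGCGG, the E-box CACGTG, the CRE core TGACGTC, the AP-1 site TGANTCA and the ETS core CCGGAA. Polr2a lies at chr11:69758634-69758783, minus strand, Ell2 at chr13:75707334-75707483, plus strand, Hexim1 at chr11:103116175-103116324, plus strand, Ccnk at chr12:108179588-108179737, plus strand, Brd3 at chr2:27475399-27475548, minus strand, Rtf1 at chr2:119674918-119675067, plus strand, and Polr2b at chr5:77310334-77310483, plus strand.
Polr2a: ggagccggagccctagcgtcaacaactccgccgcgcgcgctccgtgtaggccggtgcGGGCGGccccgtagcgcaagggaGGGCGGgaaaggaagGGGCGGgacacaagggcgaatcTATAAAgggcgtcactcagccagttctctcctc
Ell2: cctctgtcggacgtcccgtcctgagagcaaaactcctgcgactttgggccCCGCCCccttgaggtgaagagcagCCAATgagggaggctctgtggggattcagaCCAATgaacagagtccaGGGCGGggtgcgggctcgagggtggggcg
Hexim1: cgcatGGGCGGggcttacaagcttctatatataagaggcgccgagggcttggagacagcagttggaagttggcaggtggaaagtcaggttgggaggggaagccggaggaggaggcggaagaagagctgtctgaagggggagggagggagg
Ccnk: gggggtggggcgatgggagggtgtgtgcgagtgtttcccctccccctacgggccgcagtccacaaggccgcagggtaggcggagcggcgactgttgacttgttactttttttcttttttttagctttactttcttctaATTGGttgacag
Brd3: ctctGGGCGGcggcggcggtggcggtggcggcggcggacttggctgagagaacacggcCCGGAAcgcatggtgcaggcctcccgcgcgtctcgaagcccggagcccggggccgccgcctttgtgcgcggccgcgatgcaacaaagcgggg
Rtf1: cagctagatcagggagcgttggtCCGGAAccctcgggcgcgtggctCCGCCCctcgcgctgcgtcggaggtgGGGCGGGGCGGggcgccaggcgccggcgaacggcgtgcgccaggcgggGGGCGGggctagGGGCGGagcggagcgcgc
Polr2b: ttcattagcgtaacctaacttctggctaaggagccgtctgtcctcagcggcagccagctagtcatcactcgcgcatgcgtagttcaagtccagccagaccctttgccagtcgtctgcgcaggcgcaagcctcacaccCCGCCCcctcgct

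Polr2a was the single gene of the 30 with the exact letters TATAAA in this window, at position -33 from the start (counting the base before the start as -1). It also held 3 GC boxes. The letters TATAAA were found in 3.3% of the 30 genes and in 3.4% of 10026 genes that reached 1 FPKM and had a window. Other forms of the TATA box were not searched. Polr2b held 1 GC box, at position -13, and none of the other motifs. Ell2 held 2 CCAAT boxes, at -76 and -46, and 2 GC boxes. Ccnk held a CCAAT box on the other strand at -12, and Hexim1 a GC box at -145. Brd3 held an ETS core at -92 and Rtf1 at -127. The other elongation genes with an ETS core in the window all lay within 2-fold. Cdk9, Ccnt1, Cdk13, Polr2e and Polr2j among them had higher values in the library labelled knockout. Ccnt2, Supt16, Cdk7, Mnat1 and Polr2c had lower ones, so the ETS core did not mark a direction. Brd3 held 1 GC box and Rtf1 5, of which those at -78 and -73 overlap. Over all 30 genes the GC box was present in 23 (76.7%), against 53.6% of the 10026 genes, and the ETS core in 12 (40.0%), against 17.6%. CCAAT was present in 7 (23.3%), against 28.4%. The median number of CG dinucleotides in the window was 13.5 for the 30 genes and 11 for the 10026. A match is a description of the letters and not a binding site.

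Transcript length and GC content were weakly related to the differences. Across the 37 elongation genes the Spearman correlation of the log2 difference was 0.02 with the length of the longest annotated transcript and 0.26 with GC content (median over annotated transcripts). Across 12382 of the 13296 genes it was -0.09 and 0.04. Genes are not independent replicates and all values come from the same library pair. In the GENCODE M21 annotation the exons of 18 of the 38 genes overlap those of another gene, and no source used here says whether strand was used in counting. Polr2a, Hexim1, Ccnk, Rtf1 and Tcea2 had no such overlap. Ell2 overlaps an antisense RNA gene and, on its own strand, a small nucleolar RNA gene. Neither was found under its annotated name among the deposited values. Brd3 overlaps a microRNA gene listed at 0 in both libraries. Polr2b overlaps Igfbp7 on the opposite strand, which was 54.9 FPKM in the library labelled knockout and 404 in wild type, and Brd2 overlaps H2-DMa, which was 3.89 FPKM in the library labelled knockout and 1.34 in wild type. Polr2i overlaps Tbcb on the opposite strand, which was 46.4 FPKM in the library labelled knockout and 17.1 in wild type. Polr2c likewise overlaps Dok4, which was 2.02 FPKM in the library labelled knockout and 19.0 in wild type. Ell3 overlaps Serinc4 on its own strand, which was 1.75 FPKM in the library labelled knockout and 0.704 in wild type. The part of overlapping genes in the values of any of the 18 genes was not tested.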

How the data were processed

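RNA sequencing values came from 2 libraries, 1 per genotype, each from pooled RNA converted with the ScriptSeq v2 kit, per the labels' protocols. The unit of the deposited values was taken to be FPKM, since they are decimals with no negative value and Cufflinks 2.2.1 and Cuffnorm appear in the submitters' processing notes, beside STAR 2.5.2b, R 3.3.2 and build mm9. No source used here gives the role of each tool, the annotation or any scaling between libraries.

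Genes at 1 FPKM or more in at least 1 library were kept, and log2(FPKM + 1) differences were computed with Python 3.11.15, numpy 2.4.6 and pandas 2.3.3 and checked on simulated data. The depth, which no source states, was read from low values of genes that have only 1 annotated transcript, of 2500 nt or more (1 to 5 fragments, fragment length of 200 nt assumed). The lowest of 500 scanned depths that came near the best share gave 9100000 fragments for the library labelled knockout and 10200000 for wild type, with 76.0% of 175 and 82.4% of 159 values within 0.1 of a whole number. Fragments for single genes use the longest GENCODE transcript and assume no further scaling. This did not give whole fragments for every gene, and no count model was used. Values at exactly 0 can be failed estimates.

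The genes and lists were chosen with earlier results of these data known. Named are all 38 genes, Dot1l, cell markers, and of the further elongation genes those past 2-fold and the 5 of highest mean FPKM. Other further genes, and the gene pairs for ratios, were named after their values were seen, for belonging to the same complexes. 1 further elongation gene is not reported here. No coordinates of the files' build are given.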

Additional observations from a re-analysis of the deposited data

How the results depend on the processing

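No paired analysis was possible because there is a single library of each genotype. For the same reason none could be left out, and the spread between pools is not measured. In 8 alternatives (pseudocounts, rescalings and minimums) the 7 genes called above kept their direction wherever they had a value, Tcea2 in 7 of them, since it is left out at a minimum of 5 FPKM. Polr2a lay between 1.49 and 1.94, Ell2 between 1.26 and 1.93, Hexim1 between 1.19 and 1.55, and Ccnk between 0.80 and 1.23. Brd3 lay between -1.58 and -0.95, Rtf1 between -1.51 and -0.97, and Tcea2 between -1.83 and -0.55. Of the 37 elongation genes 33 kept their sign and 4 did not.

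The 4 higher elongation genes became 8 at 1.5-fold and 2 at 3-fold. They became 3, without Ccnk, with a pseudocount of 5 and in all rescalings except that to the same median gene. The 3 lower ones became 6 at 1.5-fold, 0 at 3-fold, 0 with a pseudocount of 5 and 2, without Tcea2, at a minimum of 5 FPKM. After rescaling to a common sum of 1000000 FPKM they became 6. They became 5 when small RNAs were left out of that rescaling. Counted as small RNAs, by symbol, were microRNAs and small nucleolar, small nuclear, ribosomal and some other noncoding RNAs. This set held 8.27% of summed FPKM in the library labelled knockout and 0.965% in wild type. The share of each kind in it was not separated. Rescaling to the same upper quartile or the same median gene gave 4. Larp7 was among the lower genes in every rescaling. With a pseudocount of 0.1 Cdk9 passed the limit as well. The median of -0.17 became -0.52 after rescaling to a common sum and -0.41 when small RNAs were left out of it. It became -0.29 for the same upper quartile and -0.26 for the same median gene. With a pseudocount of 5, no minimum or a minimum of 5 FPKM it was -0.15. Of the further elongation genes, the 2 higher became 3 with a pseudocount of 0.1, 1 in both sum rescalings, 8 at 1.5-fold and 1 at 3-fold. Aff4 was the gene lost in both sum rescalings (0.863 and 0.973). The 3 lower became 1 with a pseudocount of 5, 2 at a minimum of 5 FPKM, 7 at 1.5-fold and 0 at 3-fold. They became 6 in both sum rescalings and 4 for the same upper quartile. Over all genes, the 2231 higher numbered 3464 at 1.5-fold, 1298 at 3-fold and 1323 under a pseudocount of 5. The 2060 lower numbered 3450 at 1.5-fold, 906 at 3-fold, 921 under a pseudocount of 5 and 3330 after rescaling to a common sum.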

Other observations

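Of 28 general initiation factor genes, which act before elongation, 27 lay within 2-fold, beside 67.7% of all genes, with a median log2 difference of 0.10. The exception was Tbp, the TATA-binding protein, with 9.40 FPKM in the library labelled knockout and 22.6 in wild type, a log2 difference of -1.18. The TFIIF genes Gtf2f1 and Gtf2f2 were 62.7 and 29.4 FPKM in the library labelled knockout, against 39.2 and 20.7 FPKM in wild type.

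The genes of the largest subunits of RNA polymerases I and III lay within 2-fold. Polr1a and Polr3a were 12.2 and 7.61 FPKM in the library labelled knockout, against 16.9 and 7.21 FPKM in wild type. Within 2-fold were 17 of 18 subunit genes specific to these enzymes, beside 67.7% of all genes, and their median log2 difference was 0.04. The exception was Polr1d, a subunit common to both enzymes, with 75.1 FPKM in the library labelled knockout and 35.4 in wild type, a log2 difference of 1.07. Polr1d lay inside the 2-fold limit with a pseudocount of 5 (0.989) and in every rescaling (0.728 to 0.972). Markers of macrophages and mast cells were higher in the same library, and their part in these values was not tested.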
